A study of Mus musculus with 14 samples.

Results

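RNF2 sites that entered the top ranks in cells without BAP1 were taken from ChIP-seq peak lists of mouse embryonic stem cells. From each of 4 RNF2 lists, 2 of wild type and 2 of BAP1 knockout, the same number of peaks was kept, those of highest pileup (the stacked signal at the summit). That number is the length of the shortest list, that of the first wild-type library, which has 4039 peaks, all but 1 of them on chromosomes 1 to 19, X and Y. The kept peaks were merged where they overlapped. A region was called rising where both BAP1 knockout lists and neither wild-type list held a kept peak. There were 452 rising regions among 5118 merged regions, or 8.83%. The same rule with the genotypes exchanged gave 177 mirror regions, or 3.46%, and 2421 regions were kept in all 4 lists. The RNF2 values of both genotypes chose these sets, so the ranks below describe the choice and carry no test.

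The series held 7 ChIP libraries and 7 input libraries from C57BL/6 embryonic stem cells, all of them exposed for 4 days to 4-OHT at 100 nM together with the caspase inhibitor emricasan at 10 µM. RNF2 was precipitated from wild-type cells (2 libraries), from BAP1 knockout cells (2 libraries) and from RNF2 knockout cells (1 library). BAP1 was precipitated from Bap1C91A/- cells (1 library), in which the only allele encodes BAP1 with its catalytic cysteine replaced and which had also been crosslinked with disuccinimidyl glutarate, and from BAP1 knockout cells (1 library). The number of clones and the way the deletions were made are not given in the sources used here, and nothing states that libraries of 1 genotype came from separate cultures.

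RNF2, also called RING1B, is the E3 ligase of Polycomb repressive complex 1 and places ubiquitin on histone H2A, most densely over CpG-rich promoters of silent developmental genes. BAP1 is the deubiquitinase that removes this mark, acting in a complex with an ASXL protein. Loss of BAP1 is known to raise H2A ubiquitination broadly over the genome.

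The promoters below belong to genes whose transcription start lies in a named region, and they are shown because most promoters of both sets were rich in CpG. Each runs 5′ to 3′ on the gene's strand from 250 bases before to 50 bases after the start, from the RefSeq table of GRCm38.p6, and capitals mark every CpG. The first 3 belong to rising regions among the 12 of highest rank. Notch1 is shown as 1 of 5 rising regions with a BAP1 peak, and Mt1 as 1 of 8 with no wild-type peak at all. Igf2bp2 and Tnfrsf21 come from the mirror set.
Vsig10, chr5:117319016-117319315, plus strand: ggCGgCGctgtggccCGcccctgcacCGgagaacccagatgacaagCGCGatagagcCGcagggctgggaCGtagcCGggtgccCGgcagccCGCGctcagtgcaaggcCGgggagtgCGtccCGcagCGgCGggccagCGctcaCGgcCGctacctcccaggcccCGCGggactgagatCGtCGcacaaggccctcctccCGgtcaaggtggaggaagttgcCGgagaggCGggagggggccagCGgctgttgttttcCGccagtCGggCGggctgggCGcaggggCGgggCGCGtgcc
Efna1, chr3:89279596-89279895, minus strand: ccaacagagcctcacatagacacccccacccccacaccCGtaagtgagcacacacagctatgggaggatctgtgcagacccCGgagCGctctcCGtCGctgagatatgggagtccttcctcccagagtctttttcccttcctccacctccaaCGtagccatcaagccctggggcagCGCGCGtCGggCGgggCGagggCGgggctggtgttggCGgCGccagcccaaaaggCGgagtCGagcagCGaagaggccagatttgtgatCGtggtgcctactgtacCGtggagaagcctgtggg
Zbtb7b, chr3:89393329-89393628, minus strand: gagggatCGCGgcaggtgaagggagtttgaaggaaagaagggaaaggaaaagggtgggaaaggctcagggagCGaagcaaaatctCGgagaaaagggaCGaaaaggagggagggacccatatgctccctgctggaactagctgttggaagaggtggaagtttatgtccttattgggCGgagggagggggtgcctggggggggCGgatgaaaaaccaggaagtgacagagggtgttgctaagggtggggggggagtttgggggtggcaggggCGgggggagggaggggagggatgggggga
Notch1, chr2:26503773-26504072, minus strand: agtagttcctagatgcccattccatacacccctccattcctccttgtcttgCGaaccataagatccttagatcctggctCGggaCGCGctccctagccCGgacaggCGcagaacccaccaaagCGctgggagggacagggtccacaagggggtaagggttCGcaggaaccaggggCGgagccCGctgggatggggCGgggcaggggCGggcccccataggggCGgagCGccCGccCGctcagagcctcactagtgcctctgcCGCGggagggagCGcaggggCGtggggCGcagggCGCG
Mt1, chr8:94178839-94179138, plus strand: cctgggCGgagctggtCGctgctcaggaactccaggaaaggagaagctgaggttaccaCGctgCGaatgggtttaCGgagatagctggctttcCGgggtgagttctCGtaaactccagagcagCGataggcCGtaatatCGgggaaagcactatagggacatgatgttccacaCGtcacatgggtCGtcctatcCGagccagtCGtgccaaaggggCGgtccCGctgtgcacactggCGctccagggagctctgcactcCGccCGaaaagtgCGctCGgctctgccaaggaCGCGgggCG
Igf2bp2, chr16:22163250-22163549, minus strand: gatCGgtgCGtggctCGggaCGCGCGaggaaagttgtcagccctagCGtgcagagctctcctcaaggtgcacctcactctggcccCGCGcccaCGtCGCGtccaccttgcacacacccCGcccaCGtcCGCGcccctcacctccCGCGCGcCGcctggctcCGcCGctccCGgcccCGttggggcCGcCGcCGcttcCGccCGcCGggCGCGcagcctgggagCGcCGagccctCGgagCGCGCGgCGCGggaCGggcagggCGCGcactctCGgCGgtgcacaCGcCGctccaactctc
Tnfrsf21, chr17:43016305-43016604, plus strand: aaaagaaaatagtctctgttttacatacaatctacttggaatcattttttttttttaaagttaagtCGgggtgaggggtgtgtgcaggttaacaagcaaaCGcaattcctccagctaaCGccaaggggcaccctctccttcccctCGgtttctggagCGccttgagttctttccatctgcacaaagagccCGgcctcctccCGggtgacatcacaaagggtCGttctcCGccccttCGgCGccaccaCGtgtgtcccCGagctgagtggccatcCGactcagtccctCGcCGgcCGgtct
The Vsig10 window held 35 CpG, the Notch1 window 23, the Mt1 window 24 and the Efna1 window 20. Zbtb7b held 8 in 300 bases although its region stood almost as high in rank. Among promoters of high-ranking rising regions named below but not printed, Ppm1n held 6, Sh2b3 9, Mxi1 17 and Grasp 18. The mirror promoters held 47 at Igf2bp2 and 17 at Tnfrsf21, so the printed sets overlapped in CpG content.

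The lists differed in depth and in calling before any genotype was compared. On these chromosomes the second wild-type list had 28770 peaks and the BAP1 knockout lists 7946 and 39872. The RNF2 libraries had 58.4 and 149 M tags in wild type and 54.1 and 139 M in BAP1 knockout. The rule therefore kept the whole first wild-type list, down to a pileup of 20.8, but cut the other lists at 80, 56.86 and 126. A rising region has no peak of any height in that library, while in the second it need only fall below the kept ranks. Pileup in the second libraries of both genotypes could not exceed 200, which 512 kept wild-type and 800 kept BAP1 knockout peaks reached. Under that ceiling the highest peaks were tied, and 4 rising regions were among the tied ones. RNF2 knockout cells (119 M tags) gave 0 peaks, and BAP1 ChIP gave 2395 peaks in C91A cells (415 M tags) and 144 in BAP1 knockout cells (32.5 M tags).

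The excess of rising over mirror regions was seen in the first pair of libraries and not in the second. Within the first pair, 1260 of 4744 regions (26.6%) were kept in BAP1 knockout alone and 725 (15.3%) in wild type alone. Within the second, deeper pair the counts were 705 of 4711 (15.0%) and 699 (14.8%), so the genotypes were balanced there. Without the first wild-type library the rule gave 489 rising and 574 mirror regions, and the balance turned. It gave 1061 and 529 when the second wild-type library was left out. Leaving out a BAP1 knockout library gave 663 and 259 (the first) or 559 and 257 (the second). With a library left out, its genotype needs a kept peak in its single remaining list, but the other genotype in both lists. The rising and mirror counts of these settings are thus not the same rule exchanged. The pairs also differed in tags (58.4 and 54.1 M in the first, 149 and 139 M in the second) and in the fragment length used for calling (297 and 323 bp against 100 bp), and the part of these in the result was not tested.

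**Figure D1:**
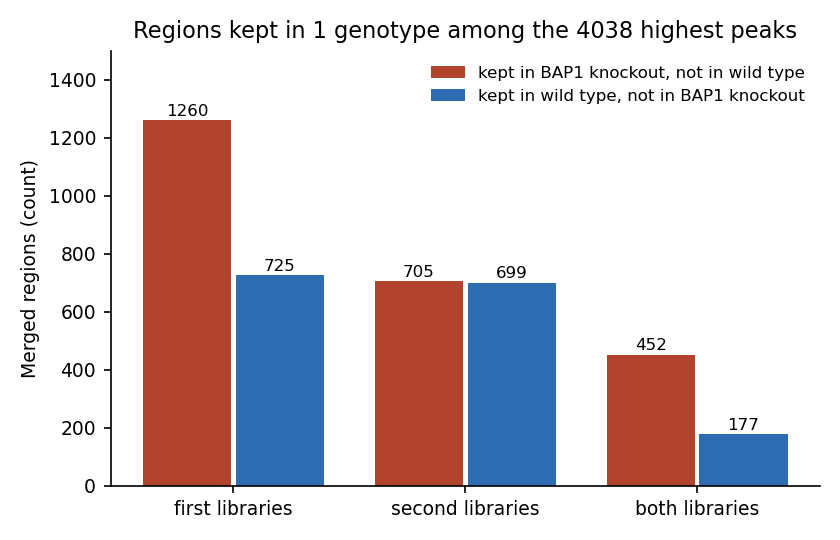
Merged regions (count, y axis) with a kept peak in 1 genotype and not in the other, for the first libraries, the second libraries and both together. Bars show 1260 against 725 in the first pair, 705 against 699 in the second, and 452 against 177 over both pairs together.

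Rising regions were middling RNF2 sites in BAP1 knockout cells and mostly present, lower down, in the deeper wild-type list. Their rank ran from 627 to 4034 in the first BAP1 knockout list (median 3043.5) and from 606 to 4031 in the second (median 2964). Regions kept in all 4 lists had a median rank of 1373 in the first BAP1 knockout list. In the second wild-type list 444 of the 452 had a peak, at ranks 4041 to 28348 (median 5539.5). Of these, 167 lay no lower than rank 5000, 225 between there and rank 10000, and 52 beyond it. For most members the change was thus one of rank, and 8 had no peak in either wild-type list. The authors' fold enrichment over the local background had medians of 6.00 and 16.4 in the BAP1 knockout lists and 5.45 in the second wild-type list, each on its own list's scale.

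**Figure D2:**
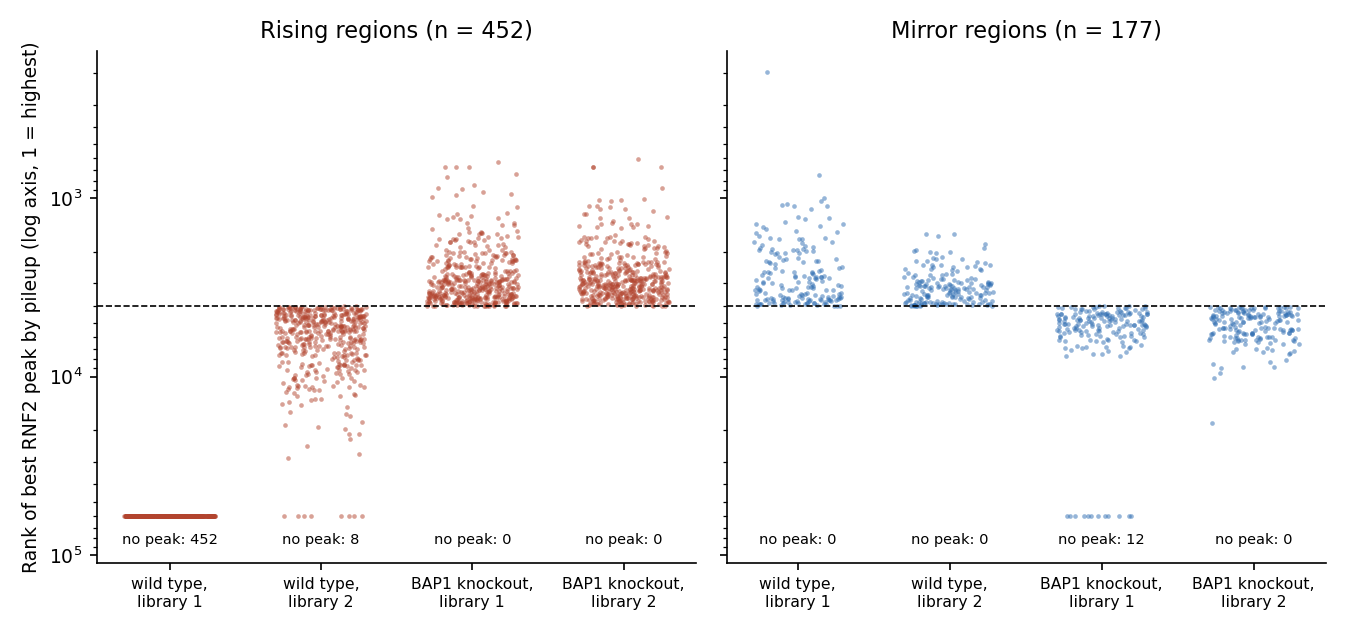
Rank of the best RNF2 peak (log axis, 1 is the highest pileup) of each region in each library, with rising regions left and mirror regions right; the dashed line is the last kept rank and points at the bottom have no peak. In wild type, no rising region has a peak in library 1, and 8 have none in library 2.

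The extent of the peaks is given as a description. The second BAP1 knockout list covered a median of 2648 bp of a rising region, the first 1426 bp and the second wild-type list 1371 bp. The rising regions are made of BAP1 knockout peaks alone, and those of the second list span nearly every region from end to end, so a shorter wild-type cover follows from how regions were made. In 185 regions each BAP1 knockout list had a single peak where the second wild-type list had at least 2. This too describes how the regions were made. Region width ran from 995 to 14068 bp.

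The edge of the choice was a matter of small steps. Just inside, the region at Ccdc122 and Lacc1 had ranks 4031 and 3723 in BAP1 knockout and 4274 in the second wild-type list. Nlgn1, a synaptic adhesion gene, entered at 3154 and 4031, the region at Tomm6, Frs3 and Prickle4 at 4033 and 3098, and a region near Yipf4 at 4034 and 3607. Just outside stood Slc7a14 (4041 and 3797), a region near 2410004B18Rik (4044 and 3619), Klhl21 (4045 and 3737) and Ccdc8 (3664 and 4047). On the wild-type side, Mroh6 (second wild-type rank 4041), Cerk (4042), Fbxw4 (4050) and Them7 (4052) were inside, and Dusp14 (4030), Nrarp (4008) and a region near Smim3 (3961) were outside. At the wild-type edge the pileup was 80 on both sides for Mroh6, Cerk, Fbxw4, Them7 and Dusp14, so tie order alone separated them.

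The highest rising region lay at Vsig10, which encodes an immunoglobulin-domain membrane protein (chromosome 5, 117317317 to 117321246). It ranked 670 and 606 in the BAP1 knockout lists and 5541 in the second wild-type list. The authors' fold enrichment there was 14.1 and 22.1 in BAP1 knockout and 5.78 in the second wild-type list. Its summits lay 45 and 55 bp before the start of the printed promoter. Ppm1n, a PPM-family phosphatase gene (chromosome 7, 19277768 to 19280586), followed with ranks 671, 668 and 4487 in the same order of libraries. Both stood in the upper part of both BAP1 knockout lists and outside the kept wild-type peaks.

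The next rising regions with a gene end within 1 kb lay at genes of varied function. Mppe1, a phosphoesterase gene of GPI-anchor remodelling (chromosome 18, 67244248 to 67246985), had ranks 627, 1010 and 4587. Efna1, the ephrin A1 ligand of Eph receptors (chromosome 3, 89277419 to 89282633), had 881, 1032 and 5013, with summits 123 and 210 bp before the start. Zbtb7b, the zinc-finger factor ThPOK of CD4 T cell development (chromosome 3, 89390482 to 89397238), had 763, 1033 and 4153. Zbtb7b thus missed the kept wild-type peaks by little, and its fold enrichment was 15.5 and 18.3 in BAP1 knockout and 7.74 in the second wild-type list. Mxi1, a MAX-binding repressor (chromosome 19, 53310060 to 53315084), had ranks 893, 1120 and 5243. Grasp, a receptor scaffold gene (chromosome 15, 101222735 to 101226168), had 1215, 1109 and 5839. Esrp2, an epithelial splicing regulator (chromosome 8, 106135085 to 106139131), had 1222, 1156 and 4687. The last 3 had their summits 1283 and 1382 bp after the start (Mxi1), 271 and 282 bp after it (Grasp), and over a gene end without a listed start (Esrp2). Plekha2, an adaptor with a PH domain (chromosome 8, 25099565 to 25104872), had ranks 673, 1236 and 5355. Mast3, a serine/threonine kinase gene (chromosome 8, 70802888 to 70806516), had 967, 1302 and 6034. Sh2b3, the adaptor LNK that restrains cytokine receptor signalling (chromosome 5, 121835044 to 121839892), had 1300, 1348 and 4679. In these regions the BAP1 knockout and wild-type ranks did not overlap, as the rule requires.

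Among rising regions with no gene end within 1 kb, the highest lay inside Sptbn4 (chromosome 7, 27363035 to 27368861), which encodes the beta-IV spectrin of the axon initial segment. Its ranks were 735 and 675 in BAP1 knockout and 5268 in the second wild-type list. A further region inside Sptbn4 had 1416, 1300 and 4682. The other two regions, chosen after their values were seen, lay inside this gene (1847, 1757 and 6400) and at its start (1876, 1476 and 5269), so that 4 rising regions shared 1 gene. The neighbouring Ltbp4, a TGF-beta binding protein gene, held the widest rising region (14068 bp; chromosome 7, 27324297 to 27338364; ranks 3967, 1644 and 8855). In the second wild-type list that stretch was broken into 8 peaks that covered 2842 bp.

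The other high regions away from gene ends were of several kinds. An intergenic region on chromosome 19 (46348100 to 46350087), 6790 bp from Mfsd13a, had ranks 953, 885 and 5734. A region at an internal start of Epb41l1, a cytoskeletal protein gene (chromosome 2, 156419481 to 156423120), had 1262, 1281 and 4665. A region at a start of Zfp217, a zinc-finger gene (chromosome 2, 170131209 to 170135199), had 986, 1405 and 19569. The Zfp217 region had the lowest wild-type rank of those named so far, and its wild-type peaks covered 286 bp against 3991 bp in the second BAP1 knockout list. Among the widest rising regions after Ltbp4 were those at Ndufa4l2 and Stac3 (7942 bp), Zbtb7b (6757 bp), and Ctdsp1 and Slc11a1 (6719 bp).

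The 8 rising regions with no peak in either wild-type list were led by one on chromosome X (169993707 to 169994858), 2909 bp from Mid1. It ranked 920 and 1432 by pileup, but its fold enrichment of 2.15 and 3.48 was the lowest of all 452 in both BAP1 knockout lists. Fold enrichment is the pileup over a local background, so that background was high there. Mt1, which encodes a metal-binding metallothionein (chromosome 8, 94178142 to 94180964), ranked 2183 and 2579, with fold enrichment of 8.49 and 16.9 and summits 248 and 336 bp after its start. Unlike the region near Mid1, Mt1 was above the median of the rising regions in fold enrichment in both lists. The start of Nupr1l beside Zbed5 (chromosome 5, 129908012 to 129909659) ranked 3397 and 3295. Reep6, an endoplasmic reticulum shaping gene of photoreceptors (chromosome 10, 80333215 to 80336952), ranked 3824 and 3124. The remaining 4 lay at ranks between 3607 and 4034. They were 1063 bp from Zfp217, 5131 bp from Pigyl, inside Myo18a, and 1642 bp from Yipf4.

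BAP1 itself was seldom listed at rising or at mirror regions, and the rule did not use BAP1 ChIP. A BAP1 peak of the C91A library overlapped 5 of 452 rising regions (1.11%, Wilson 95% interval 0.473 to 2.56), against 8.69% of all merged regions (7.95 to 9.50). The mirror regions had 2 of 177 (1.13%, 0.310 to 4.03), and the regions kept in all 4 lists 414 of 2421 (17.1%, 15.7 to 18.7). Per length, rising regions held 6.10 BAP1 peaks per Mb, mirror regions 7.83 and regions kept in all 4 lists 147. Rising and mirror regions thus had about the same low share, and both lay below the intervals of the other sets. Of the 445 merged regions with a BAP1 peak, 414 were kept in all 4 lists. The 8.69% over all merged regions thus came mostly from that set and is not the share of regions outside it. Few regions of any kind outside that set had a BAP1 peak, so the low share is not particular to rising regions. Regions kept in all 4 lists also ranked higher for RNF2 and were wider, and the part of this in the BAP1 share was not tested. The C91A data are 1 library with no replicate, and the intervals cover counting error only. In the BAP1 knockout control 0 of 452 rising regions held a peak, against 10 of 5118 merged regions (0.195%). That control list had only 144 peaks (32.5 M tags), so this 0 is at the background.

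The 5 rising regions with a BAP1 peak were all at gene ends, and their BAP1 peaks were weak. Abhd8 and Mrpl34 (chromosome 8, 71460439 to 71466064) shared 1 peak with an authors' fold enrichment of 3.22. Ppp1r3e, a glycogen-targeting phosphatase subunit gene (chromosome 14, 54875423 to 54878545), had 3 peaks, the best at 3.93. Pkd1, the polycystin-1 gene (chromosome 17, 24547945 to 24550816), had 1 at 3.37. Its neighbours in this group were Ctdsp1, a nuclear phosphatase gene that shares its region with the metal transporter Slc11a1, and the receptor gene Notch1. The region at Ctdsp1 (chromosome 1, 74386246 to 74392964) had 2 BAP1 peaks, the best at 3.30. Notch1 (chromosome 2, 26501733 to 26504947) had 1 at 2.93. The −log10 q of the best BAP1 peak ran from 2.40 at Notch1 to 4.68 at Ppp1r3e, and at a minimum of 10 no rising region held a BAP1 peak. In the mirror set the regions with a BAP1 peak were at Usp47, a deubiquitinase gene, and Endov, a nuclease gene.

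**Figure D3:**
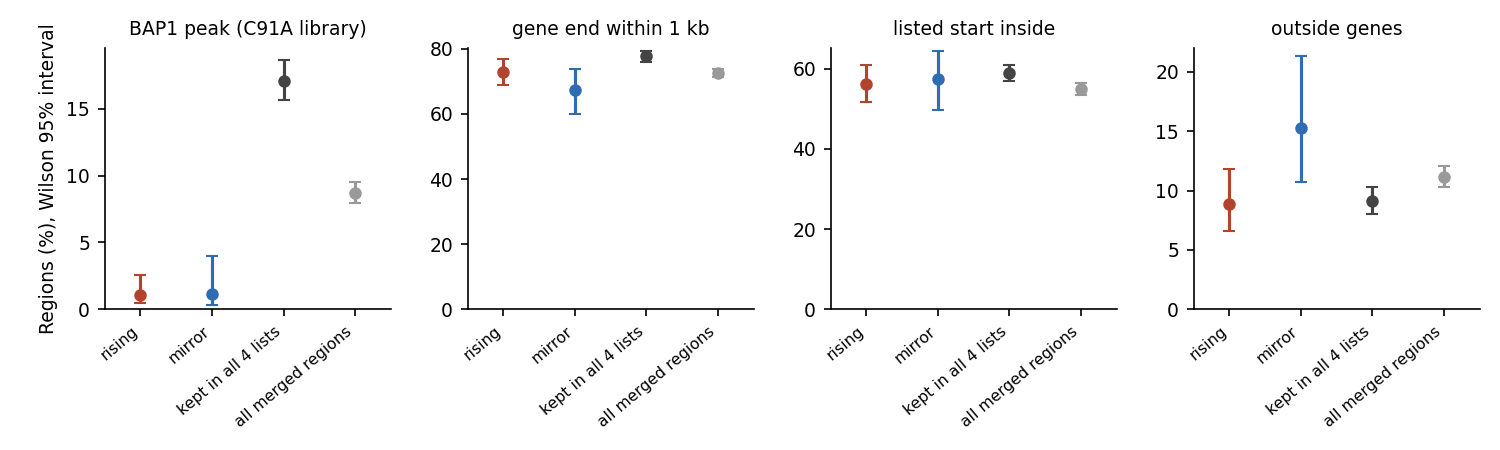
Percent of regions (y axis, with Wilson 95% intervals) that hold a BAP1 peak of the C91A library, lie within 1 kb of a gene end, hold a listed start, or lie outside genes, in the rising, mirror, all-4-list and all merged regions. The BAP1 share is 1.11% in rising and 1.13% in mirror regions against 17.1% in regions kept in all 4 lists. The gene-end share is 73.0% in rising, 67.2% in mirror and 77.7% in all-4-list regions.

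The share of rising regions at gene ends was near the background. A gene end lay within 1 kb of 330 of 452 rising regions (73.0%, 68.7 to 76.9), against 72.7% of all merged regions. Mirror regions had 67.2% (60.01 to 73.72). A listed transcription start lay inside 246 of 437 rising regions on the chromosomes with listed starts (56.3%, 51.6 to 60.9), against 54.9% of all and 57.3% of mirror regions. Regions kept in all 4 lists had 77.7% at a gene end (76.0 to 79.3) and 58.9% with a listed start (56.9 to 60.9). Inside a gene with no gene end near lay 60 rising regions (13.3%, 10.5 to 16.7), against 10.9% of all merged regions (10.0 to 11.7), 9.04% of mirror regions (5.64 to 14.2) and 8.18% of regions kept in all 4 lists (7.15 to 9.34). Outside genes lay 40 rising regions (8.85%, 6.57 to 11.8), against 11.1% of all. Mirror regions lay outside genes in 15.3% (10.7 to 21.3) of cases. Among these shares, only that inside genes, set against regions kept in all 4 lists, had an interval for rising regions clear of the other set's, and no test was made of it.

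Within regions with a start, the RNF2 summit lay just after it. In the 246 rising regions the median summit was 236.5 bp downstream of the nearest start in the first and also in the second BAP1 knockout library (quartiles 80 to 442.5 and 71 to 415). The summit was downstream in 199 (80.9%) and 203 (82.5%) of them, and within 500 bp in 175 (71.1%) and 183 (74.4%). In mirror regions the median was 147 bp and 163.5 bp in the wild-type libraries. In regions kept in all 4 lists it was 327 bp in the second BAP1 knockout library, and 58.4% were within 500 bp. The 3 sets were alike in lying downstream of the start in most cases. The summits of the BAP1 knockout libraries were a median of 75 bp apart in rising regions (quartiles 34 to 132), and 413 of 452 (91.4%) were within 250 bp of each other. Both libraries thus placed the peak near the same point in most members, whose peaks overlap by the rule. In mirror regions the wild-type summits were a median of 98 bp apart, and 81.4% were within 250 bp of each other.

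**Figure D4:**
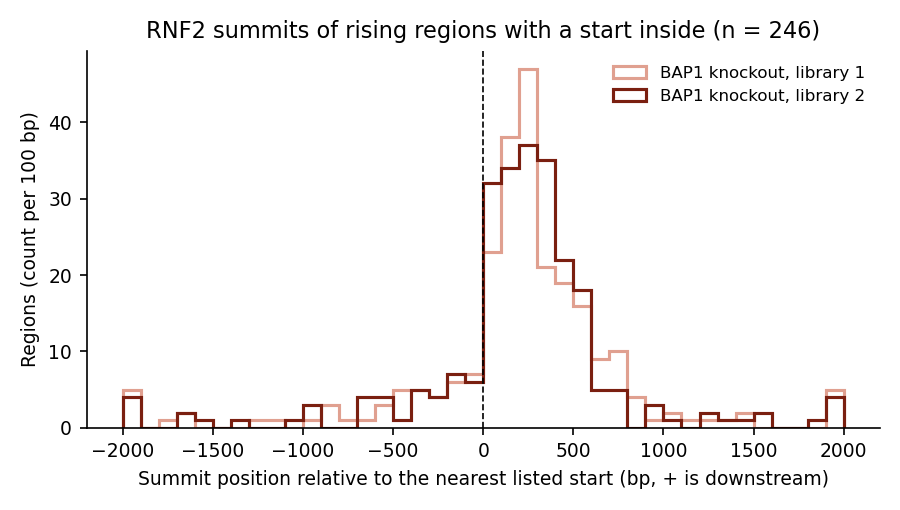
Position of the RNF2 summit relative to the nearest listed start (x axis, bp, positive is downstream; values beyond the axis are counted in the outermost bins) for the 246 rising regions with a start inside, as regions per 100 bp (y axis), in the BAP1 knockout libraries. Both distributions peak shortly after the start, with a median of 236.5 bp in each.

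Rising regions lay in parts of the genome with more genes. A median of 5 protein-coding genes (quartiles 3 to 9) had their centre within 100 kb of a rising region, against 2 (1 to 3) for mirror regions, 2 (1 to 4) for regions kept in all 4 lists and 3 (1 to 5) for all merged regions. The genes with a start in a rising region had a median length of 22.6 kb (8.58 to 53.0; 261 genes), against 59.2 kb in mirror regions (101 genes), 36.9 kb in regions kept in all 4 lists and 16.9 kb over all genes with a listed start. The lower quartile of rising regions (3 genes) was above the median of the mirror regions. Both measures were added after values had been seen, and no test was made. Of the rising regions 27 (5.97%, 4.14 to 8.55) lay within 10 kb of a region kept in all 4 lists, against 9.07% of all merged regions (8.31 to 9.88), with intervals that overlapped. The median distance to such a region was 166227.5 bp for rising regions, 219599.5 bp for all merged regions and 277389 bp for mirror regions.

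By chromosome, the rising regions were most numerous on chromosome 11, with 48 (10.6% of the set, against 8.30% of all merged regions). Chromosomes 7 and 10 followed with 35 and 34, and on chromosome 10 they made up 13.9% of its merged regions. Chromosome 15 held 29 rising and 2 mirror regions, and chromosome 17 held 23 and 3. The opposite held on chromosome X, with 6 rising and 11 mirror regions, and on chromosome 12, with 9 and 13. These counts describe 2 libraries a genotype, and chromosome copy number in the cells was not examined.

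At the level of genes, 396 protein-coding genes had an end within 1 kb of a rising region (1.82% of 21775), 127 of a mirror region (0.583%) and 2048 of a region kept in all 4 lists (9.41%). No gene was at both a rising and a mirror region, and 10 genes at rising regions were also at a region kept in all 4 lists. A region kept in all 4 lists cannot count as rising, although another region of the same gene can. None of 39 Hox genes was at a rising region, and 39 of 39 were at regions kept in all 4 lists. Of 143 other homeobox and paired genes 1 was at a rising region, Cux2, a cut-homeobox factor of cortical neurons (ranks 2087 and 2142 in BAP1 knockout and 4546 in the second wild-type list), and 83.9% were at regions kept in all 4 lists. Of 85 Sox, Fox, Gata and T-box genes 1 was at a rising region, Foxp4 (3107, 3218 and 4464), while Sox11 and Tbx5 were at mirror regions. The mirror region at Tbx5 lay 18 bp from a region kept in all 4 lists.

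Chromatin and cell-identity lists contributed almost no member. None of 30 PRC1 genes, 15 PRC2 genes and 13 genes of BAP1 and its partners was at a rising region. The ASXL gene Asxl3 was at a mirror region, which lay 57 bp from a region kept in all 4 lists. None of 24 pluripotency genes, 16 primitive endoderm genes, 36 germ cell and meiosis genes, 26 intrinsic apoptosis genes, 11 cell cycle inhibitors or 12 fibroblast markers was at one. Peak lists hold no expression, so they do not check the cell type. Of 17 trophoblast genes 1 was at a rising region, the keratin gene Krt8 (ranks 3840, 3355 and 4786). Regions kept in all 4 lists held 64.7% of the trophoblast and 62.5% of the primitive endoderm genes, but 8.33% of the pluripotency genes. None of 22 imprinted genes was at a rising region, and 59.1% were at regions kept in all 4 lists. With 1.82% of all genes at a rising region, a list this short can hold none and still be at the background.

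The signalling lists held few members at rising regions, where 1.82% of all genes lie. None of 63 Wnt and Fgf genes, 35 BMP, GDF and TGF-beta ligands, 15 hedgehog genes and 43 bHLH lineage factors was at a rising region. The hedgehog genes Gli2 and Hhip and the bHLH gene Msc were at mirror regions. Of 21 Notch pathway genes the receptor gene Notch1 was at a rising region (ranks 2956, 3877 and 4869) and the target gene Hes7 at a mirror region. Of 18 retinoic acid genes 1 was, the receptor gene Rarg (3382, 2684 and 5608). A single gene makes 4.76% of the Notch list and 5.56% of the retinoic acid list, so these shares say nothing about the pathways.

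Solute carriers and cadherins gave the largest counts of members at rising regions. Of 92 cadherins and protocadherins 7 were at rising regions (7.61%, against 1.82% of all genes) and 0 at mirror regions, and 54.3% were at any merged region, against 18.5% of all genes. They were Pcdh1, a protocadherin outside the clusters (ranks 2084, 2868 and 6804), and 6 clustered protocadherins on chromosome 18, each at a region of its own, the highest Pcdhga12 (1705, 1790 and 4282). These 6 share 1 locus and are not independent of each other. Of 389 solute carriers 17 were at rising regions (4.37%, against the same 1.82%) and 1, Slc16a7, at a mirror region, and 26.2% were at any merged region. The highest were Slc16a13, a monocarboxylate transporter family gene (1807, 1778 and 5215), Slc22a17, the lipocalin-2 receptor (2081, 1731 and 4406), and Slc50a1, a sugar transporter (2363, 2347 and 7641). Slc1a3, the glial glutamate transporter, followed with ranks 1770, 2367 and 11312. The list was made by symbol prefix and includes Slc9a3r1, which encodes a scaffold and not a transporter. At regions kept in all 4 lists the solute carriers had 11.8%, near the 9.41% of all genes.

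Of 118 potassium and calcium channel genes 5 were at rising regions (4.24%, against 1.82% of all genes) and 0 at mirror regions. They included the potassium channel genes Kcnj4 (ranks 3299, 3424 and 4582), Kcnh8 (3504, 3357 and 4862) and Kcnab3, and the calcium channel subunit gene Cacng6. Of 71 axon guidance genes 4 were (5.63%), the ligand genes Efna1, Sema4c (3166, 3268 and 4562), Sema3b (3332, 2919 and 4905) and Sema4g (3849, 3532 and 9876), and the receptor gene Plxna2 was at a mirror region. None of 48 glutamate and GABA receptor genes was at a rising region, while Gria4 and Grik4 were at mirror regions. None of 44 collagens was at either set. At regions kept in all 4 lists were 45.8% of the receptor genes and 27.3% of the collagens. The counts of 5 and 4 are small, and the channel and axon guidance lists were also more often at any merged region (52.5% and 62.0%, against 18.5% of all genes), so nothing about rising regions is read from them.

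Among lists of general function the Zfp genes were near the 1.82% of all genes at a rising region. They were also less often at any merged region (12.6%, against 18.5% of all genes). Of 397 zinc-finger Zfp genes 5 were at rising regions (1.26%), among them Zfp623 (ranks 3221, 2762 and 4994), Zfp358 (3363, 2042 and 5193), Zfp775 (3522, 2577 and 4255) and Zfp30 (3770, 3341 and 9193). None of 84 cytosolic ribosomal protein genes was at one. Single members came from 97 histone genes (the linker histone gene H1f0), 49 genes with Nduf names (Ndufa4l2) and 19 housekeeping genes (Gusb, a lysosomal glucuronidase). Further single members came from 4 metallothionein genes (Mt1) and 1105 olfactory receptor genes (Olfr94, beside Ubd). Each of these is 1 gene at 1 region, so a share as high as 5.26% (housekeeping) or 25% (metallothionein) rests on a single region.

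A further 10 families were listed after the genes at rising regions had been seen, so their counts describe the members and cannot support a theme. Over all protein-coding genes, 1.82% were at a rising region and 18.5% at any merged region. Of 7 STAT genes, the transcription factors of cytokine signalling, 4 were at rising regions, among them Stat6 (ranks 2941, 2282 and 8016), and Stat5a with Stat5b at 1 shared region (3589, 3312 and 6053). The interferon receptor genes Ifngr2 (2562, 2205 and 4520) and Ifnar2 (3844, 3567 and 7604) were 2 of 5. The TNF receptor genes Tnfrsf1a (2262, 2546 and 5546), Tnfrsf12a and Tnfrsf25 were 3 of 20, with Tnfrsf21 at a mirror region. Of 4 ICAM adhesion genes 3 were at rising regions, all within 2 neighbouring regions on chromosome 9. Of 26 immediate-early and stress-response genes 5 were at rising regions and 38.5% at regions kept in all 4 lists. The 5 were Arc, a synaptic plasticity gene (1724, 1676 and 6621), the stress gene Gadd45b (1995, 2157 and 10619), the AP-1 gene Fos (2462, 2333 and 7807), the zinc-finger gene Egr1 (3390, 3066 and 6802) and Ier3 (2927, 3793 and 28348). Ier3 had the lowest wild-type rank of all rising regions that had a peak. Claudins gave 2 of 23, MAP kinases 2 of 13, phospholipase C genes 2 of 13, class 4 semaphorins 2 of 6 and keratins 1 of 49.

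In sequence, the promoters of genes with a start in a rising region held more CpG than listed promoters in general and slightly fewer than those of the other region sets, by medians that were not tested. The 261 promoters held a median of 22 CpG in 300 bases (quartiles 15 to 29, range 1 to 55). Notch1 and Mt1 lay near that median, and Vsig10 above the upper quartile. The medians were 25 in mirror regions, 23 in regions kept in all 4 lists, and 15 over all 17491 genes with a listed start. At least 20 CpG were found in 62.1%, 68.3%, 62.8% and 38.9% of promoters in the same order. Zbtb7b, with 8, was thus below the lower quartile of the set. GC content had medians of 64.3%, 65.3%, 65.7% and 57.0%.

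Of 12 short motifs searched on both strands, the GC box GGGCGG, bound by SP and KLF factors, was the most frequent. It was found in 79.7% of rising promoters (Wilson 95% interval 74.4 to 84.1), 69.3% of mirror promoters (59.7 to 77.5), 69.3% at regions kept in all 4 lists (66.9 to 71.6) and 48.1% of all listed promoters of this length. All 7 printed promoters held it, from 5 matches at Notch1 to 1 at Tnfrsf21. The interval of rising promoters did not overlap that of regions kept in all 4 lists and did overlap that of mirror promoters. The motif contains a CpG and is GC-rich, and the part of base composition in its share was not tested. The CCAAT box, bound by NF-Y, went the other way: 28.0% (22.9 to 33.7) in rising promoters, 39.6% (30.6 to 49.4) in mirror promoters, 32.8% at regions kept in all 4 lists and 38.4% over all promoters. Among the printed promoters Zbtb7b held 1.

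The NRF1 motif GCGCATGCG was found in 1.53% of rising promoters (0.598 to 3.87), 9.90% of mirror promoters (5.47 to 17.3; 10 of 101), 1.12% at regions kept in all 4 lists and 2.42% of all promoters. The E2F motif TTCCCGC was found in 9.20%, 16.8%, 8.34% and 6.29% in the same order, and the ETS motif CCGGAAGT in 3.45%, 6.93%, 1.12% and 5.39%. For all 3 the mirror set had the highest share, and the E2F and ETS intervals of rising and mirror promoters overlapped. The E-box CACGTG was found in 6.51% and 10.9% of rising and mirror promoters against 8.05% of all, and the TATA box TATAAA in 8.05% and 2.97% against 13.0%. The letters TGCGCNC, searched for the metal response element known from metallothionein promoters, were found in 34.5% of rising and 35.6% of mirror promoters against 20.7% of all. Mt1 held 1 match of these letters, and forms of the element with other letters were not searched. The 4 remaining motifs were each in under 4% of rising promoters. They were the CRE TGACGTCA (3.83%), T-box AGGTGTGA (1.92%), forkhead GTAAACA (1.15%) and YY1 AAGATGGCG (0.766%). Matches of the GC box and the E2F motif can share bases, as can those of the NRF1 motif and the metal response element, and a match is a description of the letters alone.

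**Figure D5:**
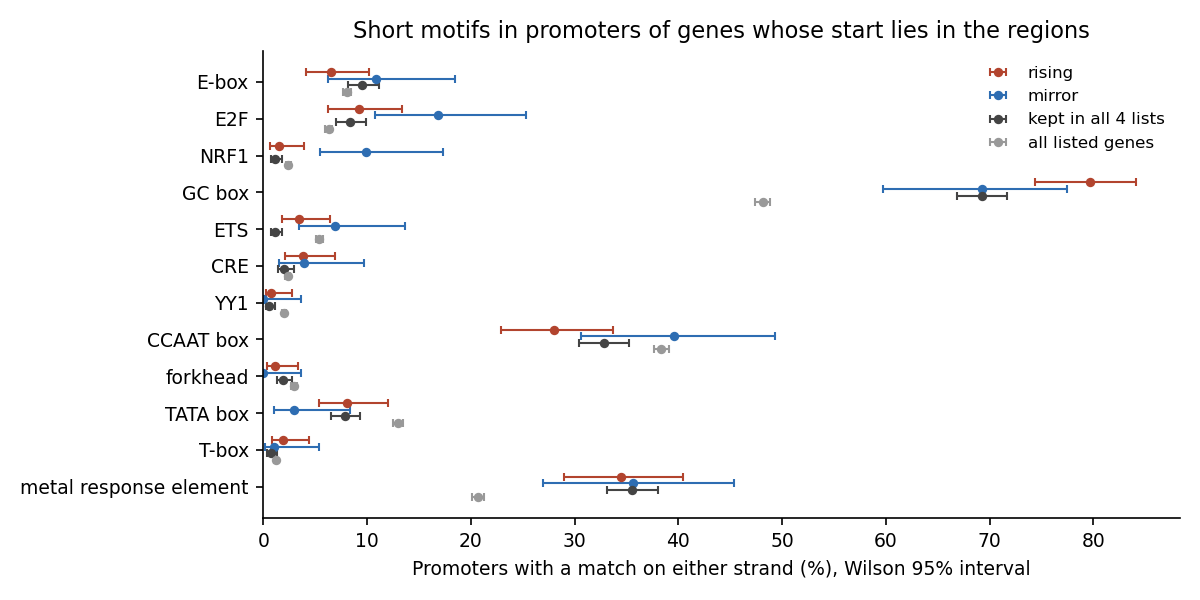
Percent of promoters with a match on either strand (x axis, with Wilson 95% intervals) for 12 short motifs (y axis) in genes whose start lies in rising, mirror or all-4-list regions and in all listed genes. The GC box is at 79.7% in rising promoters against 48.1% of all, and the NRF1 motif at 9.90% in mirror against 1.53% in rising promoters.

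The mirror regions, which fell out of the kept peaks in BAP1 knockout, are shown for contrast. The first lay in Sall3, a spalt zinc-finger factor (chromosome 18, 80971150 to 80976056), with ranks 1405 and 1586 in wild type and 4632 and 4332 in BAP1 knockout. Dab1, a reelin adaptor (chromosome 4, 104365813 to 104370007), had 1703 and 1595 against 4437 and 4479. Msc, the bHLH factor musculin (chromosome 1, 14753649 to 14757358), had 1635 and 1817 against 4465 and 4548. All 3 were still listed in both BAP1 knockout libraries, a short way past the last kept rank. Cadps2, a vesicle-release gene (chromosome 6, 23257432 to 23261873), had 1444 and 1900 against 4048 and 4211. Its region lay 63 bp from a region kept in all 4 lists. Igf2bp2, an RNA-binding protein gene (chromosome 16, 22160495 to 22163868), had 1147 and 1956 against 4706 and 6512. Tnfrsf21, the death receptor DR6 (chromosome 17, 43016425 to 43018148), had 2002 and 2369 against 6280 and 4659. Intergenic regions on chromosome 11 (94880740 to 94883656) and chromosome 3 (62197607 to 62202461) completed the first 8. Over the set, 165 of 177 had a peak in the first BAP1 knockout list (median rank 5028) and 177 of 177 in the second (median 4991). No mirror region thus lost its peak in both BAP1 knockout libraries, where 8 rising regions had none in either wild-type library. That comparison is uneven, since the BAP1 knockout lists are longer than the wild-type list of the same number.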

How the data were processed

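Reads of 50 bp were mapped with GSNAP to GRCm38 (mm10) and peaks called with MACS2, per the submitters' processing notes. No version of the aligner is given in the sources read. Per the file headers, every ChIP library was called on its own with its matching input and a q-value limit of 0.05. Version 2.1.1.20160309 of MACS2 was used for RNF2 in the knockout of RNF2 and in library 2 of the other genotypes, and version 2.1.0.20150420 elsewhere. The headers give fragment lengths of 297 and 323 bp (first wild-type and BAP1 knockout libraries), 100 bp (second libraries and RNF2 knockout), 50 bp (C91A) and 147 bp (BAP1 ChIP in BAP1 knockout). The deposited lists hold, for each peak, the pileup signal at the summit, −log10 p and −log10 q, and fold enrichment, a ratio over the local background; all are the authors' values. They were used only within a list, to rank, filter or describe peaks.

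Within chromosomes 1 to 19, X and Y, peaks were ranked by pileup, ties by chromosome and start, and regions merged at an overlap of at least 1 bp; a region takes its best peak per library. Genes came from a RefSeq table of GRCm38.p6 (21775 protein-coding genes; 108 entries placed in the first 3 Mb of a chromosome were left out). Starts and promoters came from a RefSeq promoter table with 21262 starts of 17491 genes, which covers 20 of the 21 chromosomes used; shares of regions with a start exclude the chromosome without starts. A gene with several starts counts once, by its most CpG-rich promoter among the starts in the regions or, over all genes, among all its listed starts.

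Regions were ordered by the worse of the 2 ranks in the BAP1 knockout lists. Named are the first 12 with a gene end within 1 kb, the first 6 without, those with a BAP1 peak, the 5 widest, those with no wild-type peak, the nearest to the last kept rank, up to 4 genes per list, and the first 8 mirror regions. A few regions and genes that this rule names are not reported here. The members, the 33 lists and the 12 motifs were chosen with earlier results of these data known, and 10 further families, gene density and gene length after values had been seen. No test was made: the rule used the contrast, and with 2 libraries a genotype an exact two-sided permutation test cannot go below p = 0.333. Intervals on shares are Wilson 95% intervals and cover counting error alone. The region rule was run on simulated data and recovered 200 of 200 planted rising regions among 3000. In that simulation planted peaks stood clear of all others in pileup, sites were far apart, and there was no pileup ceiling. Full recovery was thus set by its design and checks only the coding of the main rule. FLAG ChIP was not analysed here. Analyses used Python 3.11.15, pandas 2.3.3, numpy 2.4.6, scipy 1.17.1 and matplotlib 3.10.9.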

Additional observations from a re-analysis of the deposited data

How the results depend on the processing

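The number of rising and mirror regions was 401 and 151 when peaks were ranked by fold enrichment (283 of the 452 rising regions shared), 408 and 157 by −log10 q (355 shared), and 451 and 172 when ties in pileup were broken by fold enrichment, a choice added after seeing the data. Requiring 50% overlap left both counts at 452 and 177. A setting meant to merge peaks up to 1 kb apart joined only peaks that overlapped or touched. The effect of merging across gaps was thus not tested. With the 3000 best peaks they were 325 and 136 (171 shared), and with the 2000 best 260 and 126, of which only 50 rising regions were shared; with 2000, 0.385% had a BAP1 peak and 79.2% a gene end. Demanding no peak at all in the other genotype left 8 rising and 0 mirror regions. With only peaks of −log10 q of at least 10 there were 480 rising (445 shared) and 51 mirror regions, and with that minimum for BAP1 peaks 0% of rising regions held one. Leaving out 1 library at a time gave 489 to 1061 rising and 257 to 574 mirror regions, and 65.5 to 73.8% at a gene end. Only without the first wild-type library did mirror regions outnumber rising ones. In these settings the genotypes needed kept peaks in unlike numbers of lists, so the rising and mirror counts are not the same rule exchanged. The gene-end share was 78.5% with a window of 2.5 kb, 90.9% by overlap with the gene body and 56.3% by a listed start inside, which was added later. The median promoter CpG count stayed between 22 and 23.5 in the settings run. The cause of these shifts was not tested. No paired analysis was possible because no test was fitted to which a replicate block could be added; the counts within each library number, in the report, are the only comparison by pair. Pileup in the second libraries was capped, and the first wild-type list ends where the kept peaks do, so no rank below that is known for it.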

Other observations

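Of 1005 miRNA hairpins checked by position of their gene, 4 overlapped a rising region (Mir1900, Mir6924, Mir8101 and Mir6392) and 1 a mirror region (Mir6538). The sets hold 452 and 177 regions, and hairpins at the other merged regions were not counted. No difference between the sets is therefore read from these counts, and no hairpin was examined further.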
